A study of Mus musculus with 14 samples.

Results

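Epithelial keratin transcripts were measured in bulk RNA sequencing of mouse kidneys. The group consisted of 8 genes chosen by symbol, Krt5, Krt7, Krt8, Krt14, Krt15, Krt18, Krt19 and Krt20, of the 24411 gene symbols in the count tables. The kidneys came from male C57/B6 mice aged 8 weeks, with 4 libraries at day 0 and 5 libraries each at day 1 and day 3 after renal ischemia/reperfusion injury (IRI). No genotype or drug was named for these samples, and whether the day 0 mice had a sham operation was not stated. Nothing in the labels ties a library to a separate animal, so the p-values measure the spread between libraries. All 8 keratins passed the filter on low counts, which kept 14300 genes. For the basal keratins this rested on a few libraries, as the read counts given with them show.

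Keratins are the intermediate filament proteins of epithelial cells. Each filament is built from pairs of 1 type I keratin and 1 type II keratin, and the filaments are anchored at desmosomes. Krt8 (type II) and Krt18 (type I) form the pair of simple epithelia, including kidney tubules. Krt7 (type II) and Krt19 (type I) are their companions in ducts, collecting duct and urothelium. Krt20 (type I) is best known from intestinal epithelium and from the umbrella cells of the urothelium. Krt5 (type II) with Krt14 or Krt15 (type I) make up the filaments of basal cells in stratified epithelia and urothelium, which lines the renal pelvis. The first 5 are called simple keratins here and the last 3 basal keratins.

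By the GENCODE annotation of GRCm38, the build that the sample records name as mm10, the type II genes lie on chromosome 15 and the type I genes on chromosome 11, apart from Krt18. Krt18 (chr15:102028180-102032027, plus strand) neighbours its partner Krt8 (chr15:101996698-102004482, minus strand), with 23697 bases between them, and the pair is transcribed in opposite directions away from the shared interval. Krt20 spans chr11:99428403-99438150, Krt19 chr11:100140810-100148665, Krt15 chr11:100131758-100135928 and Krt14 chr11:100203162-100207548, all on the minus strand. Krt7 spans chr15:101411043-101430313 on the plus strand and Krt5 chr15:101707070-101712898 on the minus strand. The promoters of Krt20, which showed the largest fold change, and of the neighbouring pair Krt8 and Krt18 are shown from RefSeq on GRCm38.p6. Each runs 5′ to 3′ on the strand of its gene, from 250 bases before the RefSeq start site to 50 bases after it, with the letters TATAAA in capitals where found on either strand.
Krt20 (chr11:99438104-99438403, minus strand): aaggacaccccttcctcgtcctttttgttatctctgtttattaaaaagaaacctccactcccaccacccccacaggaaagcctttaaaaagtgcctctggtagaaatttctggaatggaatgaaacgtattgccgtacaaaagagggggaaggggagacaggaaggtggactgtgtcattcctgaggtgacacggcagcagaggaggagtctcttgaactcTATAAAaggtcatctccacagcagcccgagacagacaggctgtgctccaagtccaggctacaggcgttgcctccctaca
Krt8 (chr15:102004293-102004592, minus strand): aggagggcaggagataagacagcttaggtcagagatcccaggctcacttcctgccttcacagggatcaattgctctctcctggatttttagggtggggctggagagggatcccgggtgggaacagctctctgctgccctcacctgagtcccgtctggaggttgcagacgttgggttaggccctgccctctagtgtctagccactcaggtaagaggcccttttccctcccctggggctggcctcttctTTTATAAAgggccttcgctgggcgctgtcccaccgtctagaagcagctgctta
Krt18 (chr15:102027966-102028265, plus strand): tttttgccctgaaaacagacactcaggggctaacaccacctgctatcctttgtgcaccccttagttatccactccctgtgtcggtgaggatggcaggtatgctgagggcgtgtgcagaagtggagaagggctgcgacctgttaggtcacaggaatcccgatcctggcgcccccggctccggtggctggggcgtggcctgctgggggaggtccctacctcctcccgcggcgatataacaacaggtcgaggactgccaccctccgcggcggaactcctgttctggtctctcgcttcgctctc
The RefSeq start of Krt20 lies 3 bases from the first base of the GENCODE gene, while those of Krt8 and Krt18 lie 140 and 36 bases inside it. TATAAA, the letters of a TATA box, began 29 bases before the start in Krt20 and 1 base before it in Krt8, where an overlapping match on the other strand makes the capitals longer. These letters were found on either strand in 13.6% of 32851 RefSeq promoters of this length. They were not in the window of Krt18, nor in those of Krt5, Krt7 and Krt14, which the table holds too (for Krt7 and Krt14 from starts 1360 and 1518 bases inside the gene). None of the 6 windows held TGANTCA (AP-1, in 7.81% of all promoters), TTCNNNGAA (STAT, 8.30%), CCAAT (37.4%) or CACGTG (E-box, 7.15%). GGGCGG, the GC box, occurred 4 times in Krt7 and in no other member, against 35.7% of all promoters with at least 1 match. Promoters of Krt15 and Krt19 were not analysed here.

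The libraries held 12485579 to 20476979 reads on genes, and levels are given as counts per 1000000 reads (CPM) scaled by the trimmed mean of M values (TMM). Pairs of libraries of 1 day differed beyond sampling noise. Proximal tubule genes identified the tissue, with the 12 genes of that list at 27244 to 29271 CPM in sum at day 0. The number in the name of a library's deposited file has 1 digit in all 4 day 0 libraries, while day 1 has 3 such libraries (replicates 3 to 5) and day 3 has 2 (replicates 4 and 5). It has 3 digits in the other 5 libraries. What the format stands for is not given, so it was treated as a possible batch, and 3-digit libraries cannot be compared with day 0 within their own format. Basal keratins stood high in 5 libraries, namely replicate 4 at day 0, replicates 1 and 2 at day 1 and, at day 3, replicates 3 and 4. Calls of basal keratins that rest on these libraries are also given without single ones of them.

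At day 1 after IRI all 5 simple keratins rose and none of the 3 basal keratins passed the test in edgeR's quasi-likelihood fit (Benjamini-Hochberg adjusted p under 0.05). Among all 14300 genes 42.1% were called in this comparison and 23.3% were called higher. The median log2 fold change of the 8 keratins was 3.05 and that of the 5 simple keratins 3.11, beside 0.01 for all genes. At day 3 all 5 simple keratins were again called higher than at day 0, where 33.3% of all genes were called and 19.5% were called higher. Comparisons with day 0 share the same 4 control libraries.

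Krt20 rose most, from near the detection limit at day 0. The day 0 libraries held 1, 8, 6 and 42 reads of Krt20 in replicates 1 to 4, or 0.0575, 0.471, 0.379 and 2.54 CPM. At day 1 the 5 libraries stood at 891, 364, 360, 1204 and 725 CPM, and at day 3 at 170, 52.6, 85.0, 225 and 878 CPM. Every injured kidney lay far above every day 0 kidney, and the 2 groups of injured kidneys overlapped. The fitted log2 fold change was 9.68 ± 1.18 (SE) at day 1 (adjusted p = 5.90e-05) and 8.35 ± 1.13 at day 3 (adjusted p = 0.000176). Between day 3 and day 1 the difference of -1.33 ± 0.72 did not pass (adjusted p = 0.218), with the spread over day 3 running from 52.6 to 878 CPM.

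Krt8 and Krt18, the obligate partners of simple epithelia, both rose and stayed above day 0. Krt8 measured 138, 131, 127 and 118 CPM at day 0, then 1335, 1068, 804, 1326 and 1007 CPM at day 1 and 547, 355, 466, 446 and 656 CPM at day 3. The 3 days did not overlap. Krt8 rose 8.63-fold at day 1 (log2 3.11 ± 0.21, adjusted p = 1.03e-06) and stood 3.85-fold above day 0 at day 3 (log2 1.94 ± 0.20, adjusted p = 2.00e-05). Krt18 measured 18.1, 15.2, 16.8 and 45.1 CPM at day 0, then 163, 234, 226, 248 and 297 CPM at day 1 and 179, 103, 129, 132 and 174 CPM at day 3. Replicate 4 of day 0 stood apart from the other day 0 libraries but below every injured kidney. Krt18 rose 9.80-fold at day 1 (log2 3.29 ± 0.33, adjusted p = 1.79e-05) and was 6.02-fold higher at day 3 (log2 2.59 ± 0.32, adjusted p = 0.000105).

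Krt19, a type I keratin of ducts, started low. It measured 3.45, 1.24, 2.21 and 17.2 CPM at day 0, then 44.6, 73.0, 31.5, 36.3 and 53.9 CPM at day 1 and 31.8, 24.6, 40.0, 49.3 and 24.8 CPM at day 3. Here too replicate 4 was the highest day 0 library, and no injured kidney reached down to it. The log2 fold change was 2.99 ± 0.61 at day 1 (7.95-fold, adjusted p = 0.00184) and 2.50 ± 0.60 at day 3 (5.66-fold, adjusted p = 0.00632).

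Krt7, the type II keratin of collecting duct and urothelium, had the smallest fold changes of the simple keratins against day 0. It measured 126, 118, 134 and 140 CPM at day 0, then 263, 262, 214, 257 and 257 CPM at day 1 and 172, 134, 193, 159 and 162 CPM at day 3. Day 1 did not overlap with either other day, and at day 3 only replicate 2 lay within the range of day 0. Krt7 rose 1.94-fold at day 1 (log2 0.95 ± 0.12, adjusted p = 8.97e-05). The 1.27-fold difference at day 3 (log2 0.34 ± 0.12, adjusted p = 0.0440) was called in only 8 of 27 alternative settings, with adjusted p from 0.0141 to 0.141. The other 4 simple keratins kept their calls against day 0 at both days under every alternative that could test them.

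**Figure D1:**
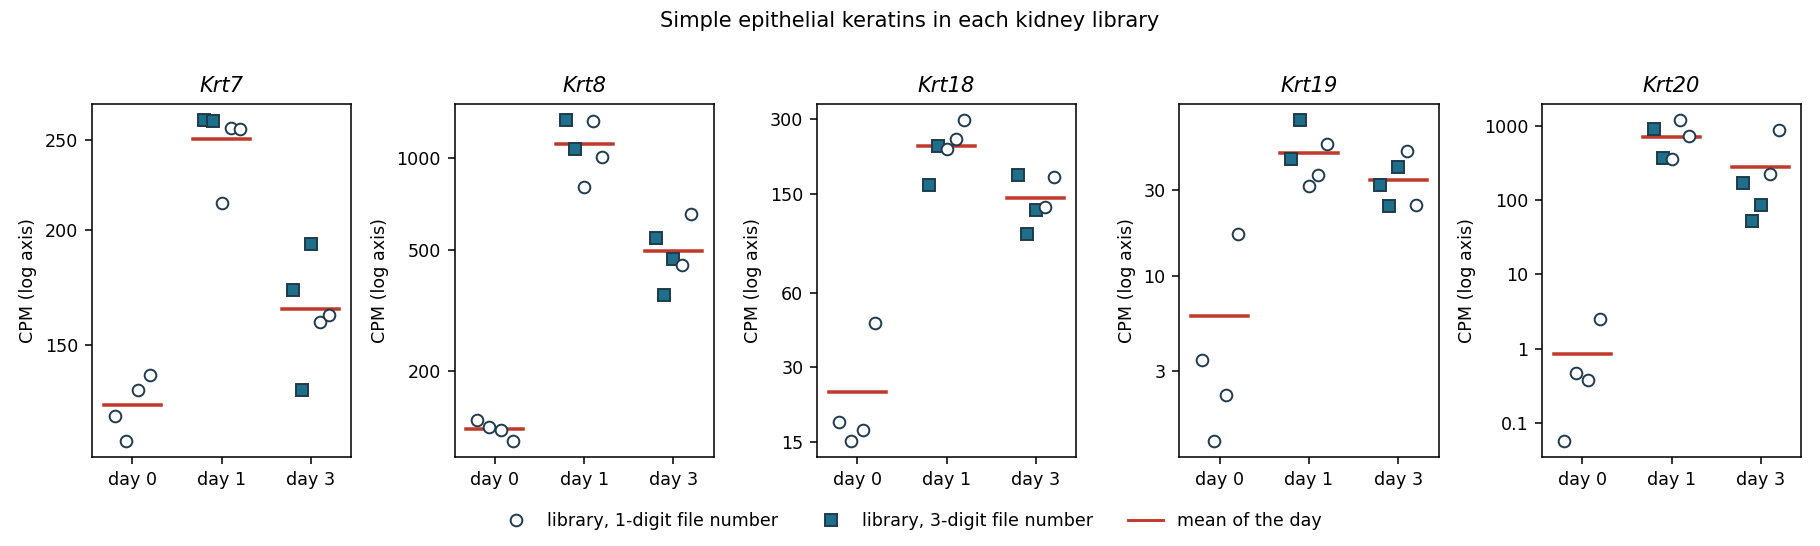
CPM (log axis) of each simple keratin in each library at day 0 (4 libraries), day 1 and day 3 (5 each). Circles are libraries with 1-digit numbers, squares those with 3-digit numbers and lines the mean of the day. Krt8, Krt18, Krt19 and Krt20 lie above every day 0 library at both later days, and replicate 4 is the highest day 0 library for Krt18 (45.1 CPM), Krt19 (17.2 CPM) and Krt20 (2.54 CPM).

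From day 1 to day 3, 2 of the 8 keratins fell, Krt7 and Krt8. In this comparison 15.9% of all genes were called and 7.39% were called lower. Krt8 fell by 1.17 ± 0.18 on the log2 scale (adjusted p = 0.00214) and Krt7 fell by 0.61 ± 0.12 (adjusted p = 0.00562), with no overlap between the days for either. The other simple keratins, Krt18 (-0.70 ± 0.28, adjusted p = 0.0976), Krt19 (-0.49 ± 0.51, adjusted p = 0.542) and Krt20 (-1.33 ± 0.72, adjusted p = 0.218), overlapped between the days and did not pass. Scaling by total counts moved the median log2 fold change of all genes to 0.19 for day 3 against day 0 and to 0.17 for day 3 against day 1, and the called simple keratins kept their directions.

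**Figure D2:**
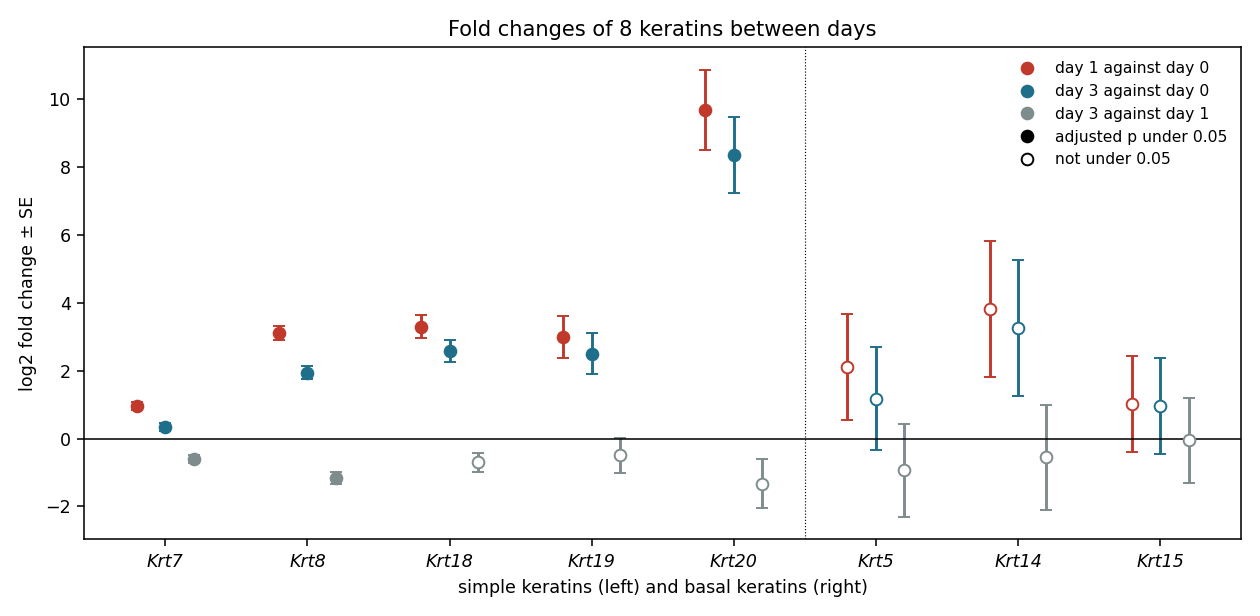
Log2 fold change with its standard error for each keratin in the 3 comparisons of days, from edgeR's fit over 14 libraries. Filled points passed the adjusted p of 0.05. The simple keratins are called against day 0 at both days, from 0.34 for Krt7 at day 3 to 9.68 for Krt20 at day 1, while the basal keratins have standard errors from 1.24 to 2.01 and open points.

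Levels can be compared between keratins per length, as CPM per kilobase (kb) of the longest coding transcript. At day 0 the order was Krt8 with 65.6 ± 4.3 (SD, n = 4), Krt7 with 31.6 ± 2.3, Krt18 with 16.6 ± 9.9 and Krt19 with 3.82 ± 4.75 CPM per kb. Krt5 (1.38 ± 2.03), Krt20 (0.447 ± 0.588), Krt15 (0.247 ± 0.295) and Krt14 (0.169 ± 0.182) followed. The ranges of Krt7 and Krt18 overlapped, as did those of Krt18 and Krt19. At day 1 Krt20 had moved to second place, with 368 ± 187 CPM per kb (SD, n = 5), after Krt8 with 566 ± 115 and before Krt18 with 162 ± 33. Krt7 (61.3 ± 5.1) and Krt19 (30.4 ± 10.4) came next. The range of Krt20 overlapped with those of Krt8 and of Krt18, while Krt18, Krt7 and Krt19 were separate from each other. At day 3 the order was the same, with Krt8 at 252 ± 58, Krt20 at 146 ± 176, Krt18 at 99.8 ± 22.5, Krt7 at 40.1 ± 5.2 and Krt19 at 21.6 ± 6.7 CPM per kb, and Krt20 again overlapped with both neighbours. Krt20 exceeded Krt18 in only 2 of 5 day 3 libraries, and without replicate 5 its mean of 69.0 ± 40.8 (n = 4) was below the 94.4 ± 22.0 of Krt18. Krt5, Krt14 and Krt15 were the lowest 3 keratins on this scale at both days.

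The make-up of the type I keratins was rearranged by this. Krt20 made up 0.197% to 2.95% of type I CPM per kb at day 0, 46.2% to 76.2% at day 1 and 23.9% to 76.9% at day 3. Krt18 made up 70.2% to 90.9% at day 0, 18.7% to 43.2% at day 1 and 20.5% to 62.5% at day 3. Neither share overlapped between day 0 and the later days. Among the type II keratins Krt8 went from 66.5% ± 4.0 (SD, n = 4) at day 0 to 89.2% ± 2.1 (n = 5) at day 1 and 85.0% ± 3.1 (n = 5) at day 3, as Krt7 rose less. The sum of type I over the sum of type II was 0.149, 0.121, 0.137 and 0.454 in the day 0 libraries. Day 1 libraries lay between 0.646 and 1.11 and day 3 libraries between 0.534 and 1.58, above each day 0 library. Krt8 exceeded its partner Krt18 per length in every library, by 1.91 to 6.33 times at day 0, 2.49 to 6.01 times at day 1 and 2.24 to 2.76 times at day 3.

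Of the 50-base stretches of the Krt8 transcript, 29.7% also occur in another gene, mostly the pseudogene Krt8-ps. Only uniquely mapped reads were counted, so that the level per length of Krt8 may be too low. With the stretches that occur in 1 gene as the length, type I over type II was 0.172 ± 0.129 (SD, n = 4) at day 0, 0.645 ± 0.141 (n = 5) at day 1 and 0.635 ± 0.308 (n = 5) at day 3. Shared stretches made up 14.4% of Krt14 (Krt16 and Krt17) and 12.2% of Krt5 (Krt6a among others), and under 1% of each other member. Krt7 overlaps the antisense gene Gm671 and Krt8 the noncoding gene Gm36026 on the other strand, which the stranded counts keep apart.

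**Figure D3:**
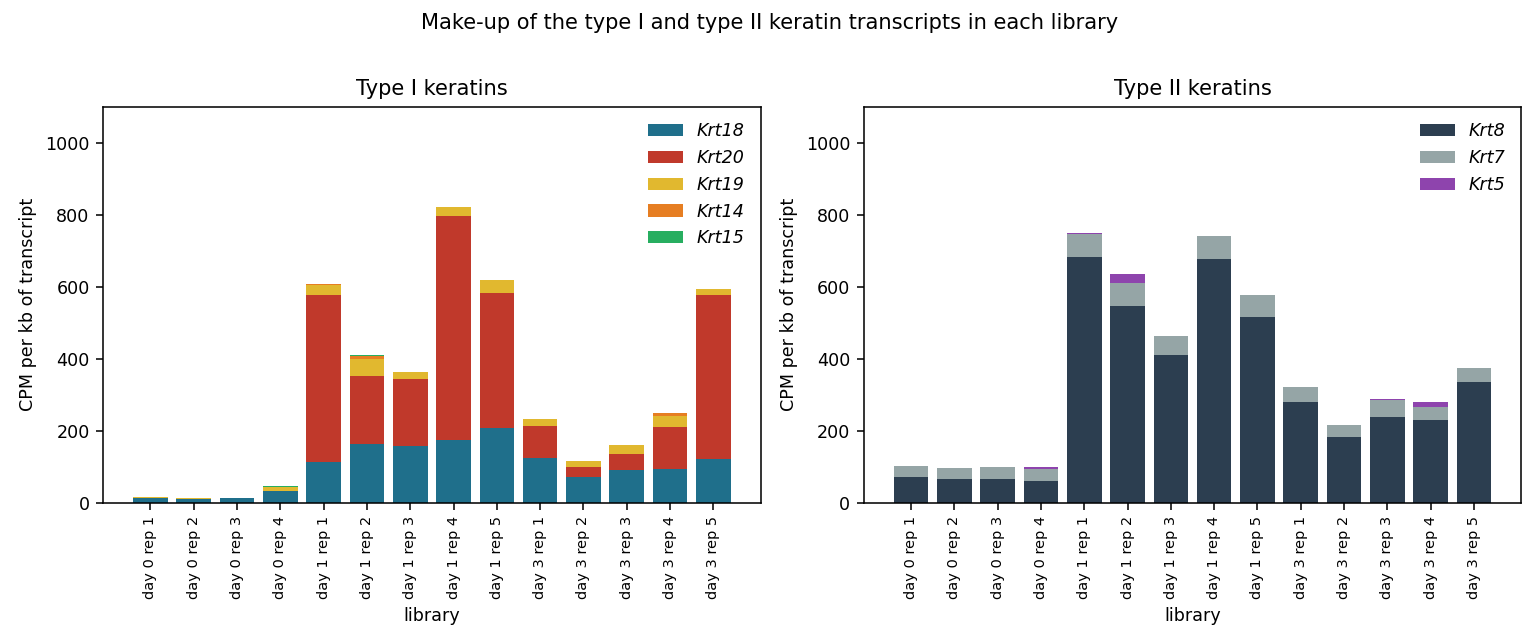
CPM per kb of transcript, stacked by gene, for the type I keratins (left) and the type II keratins (right) in each library, on the same vertical scale. At day 0 the type I stack stays at or under 44.7 CPM per kb and is mostly Krt18, at day 1 Krt20 takes 46.2% to 76.2% of it, and the type II stack is mostly Krt8 throughout.

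The basal keratins varied widely between libraries of the same day. Krt5 measured 1.38, 0.294, 0.758 and 9.68 CPM at day 0, then 8.41, 53.8, 0.545, 0.800 and 1.29 CPM at day 1 and 0.763, 0.225, 4.11, 28.6 and 0.588 CPM at day 3. The lowest of these values, 0.225 CPM, is 4 reads and the highest is 1184 reads. Krt14 had 4, 0, 3 and 12 reads at day 0, 75, 355, 0, 0 and 1 reads at day 1 and 3, 0, 14, 197 and 0 reads at day 3. Krt15 had 6, 1, 2 and 19 reads at day 0, 13, 74, 0, 0 and 0 reads at day 1 and 7, 1, 59, 10 and 0 reads at day 3. A count of 0 allows up to 0.169 to 0.241 CPM at the depths of these libraries (3 reads, counting error only). The same 5 libraries were the highest for Krt5, and in every one of them Krt14 and Krt15 were detected too.

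None of the 3 basal keratins passed between days. For day 1 against day 0 the log2 fold changes were 2.11 ± 1.55 for Krt5 (adjusted p = 0.285), 3.81 ± 2.01 for Krt14 (adjusted p = 0.139) and 1.01 ± 1.41 for Krt15 (adjusted p = 0.583). For day 3 against day 0 they were 1.17 ± 1.52 (adjusted p = 0.571), 3.26 ± 2.00 (adjusted p = 0.220) and 0.96 ± 1.41 (adjusted p = 0.623). With edgeR 0 of 3 had an unadjusted p under 0.05 in either comparison. DESeq2 called 0 of 3 in each, beside 46.7% of all genes at day 1 and 38.7% at day 3. The days overlapped for each gene. The direction rested on single libraries. Without replicate 2 of day 1, Krt5 and Krt15 turned lower at day 1 (log2 -0.11 and -1.09) but did not pass (adjusted p = 0.953 and 0.552). Without replicate 4 of day 0 Krt5 stood at log2 3.99 at day 1 and still did not pass (adjusted p = 0.115). When the injured kidneys were restricted to 3-digit libraries, 7 of 8 keratins were called higher at day 1, Krt5 (adjusted p = 0.0438) and Krt14 (adjusted p = 0.00286) among them, beside 42.9% of all genes called and 22.9% called higher. With replicate 1 as the only injured library, a group of 1 assumed to vary like the others and an alternative added after the data were seen, Krt5 did not pass (log2 1.48, adjusted p = 0.487) and Krt14 did (3.80, adjusted p = 0.0443), beside 26.9% of all genes called. With replicate 2 alone both passed (Krt5 4.12, adjusted p = 0.0480, and Krt14 5.76, adjusted p = 0.00613), beside 24.7%. When they were restricted to 1-digit libraries, Krt14 passed at day 3 (adjusted p = 0.0110), with 197 reads in replicate 4 and 0 in replicate 5, beside 56.3% of all genes called.

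Urothelial genes that are no keratins also varied by library. The list held 9 genes, the uroplakins Upk1a, Upk1b, Upk2 and Upk3a, which form the plaques of umbrella cells, together with Trp63, Psca, Grhl3, Foxa1 and Sprr1a. Their sum was 18.0, 4.88, 11.1 and 106 CPM at day 0, 52.3, 195, 14.2, 22.4 and 27.1 CPM at day 1 and 10.6, 10.5, 22.2, 52.2 and 15.6 CPM at day 3. The 5 libraries with the most Krt5 included the 4 with the highest sums, and the sum of replicate 3 of day 3 (22.2 CPM) was below those of replicates 4 and 5 of day 1. Sprr1a alone gave 39.1 of the 52.3 CPM in replicate 1 of day 1, where Upk2 had 0.70 CPM. In replicate 4 of day 3 Sprr1a gave 23.5 and Psca 16.1 of the 52.2 CPM, and Upk2 had 0 reads. Upk3a reached 11.1 CPM in replicate 4 of day 0 and 10.8 CPM in replicate 2 of day 1, while replicate 1 of day 1, with 8.41 CPM of Krt5, had 0.11 CPM of it. Of the 8 list genes tested, 0 passed at day 1 against day 0 (median log2 fold change -0.07) and 1 was lower at day 3 (median -0.82), where 13.8% of all genes were called lower. Over the alternatives up to 2 were higher and 2 lower at day 1, and up to 3 higher and 2 lower at day 3. The 3 most abundant, Sprr1a (2.19 ± 0.97, adjusted p = 0.0812), Psca (-0.50 ± 1.15, adjusted p = 0.749) and Upk1a (0.35 ± 0.68, adjusted p = 0.698), did not pass at day 1. In bulk kidney more cells of a type in the piece sampled and more RNA per cell cannot be told apart.

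**Figure D4:**
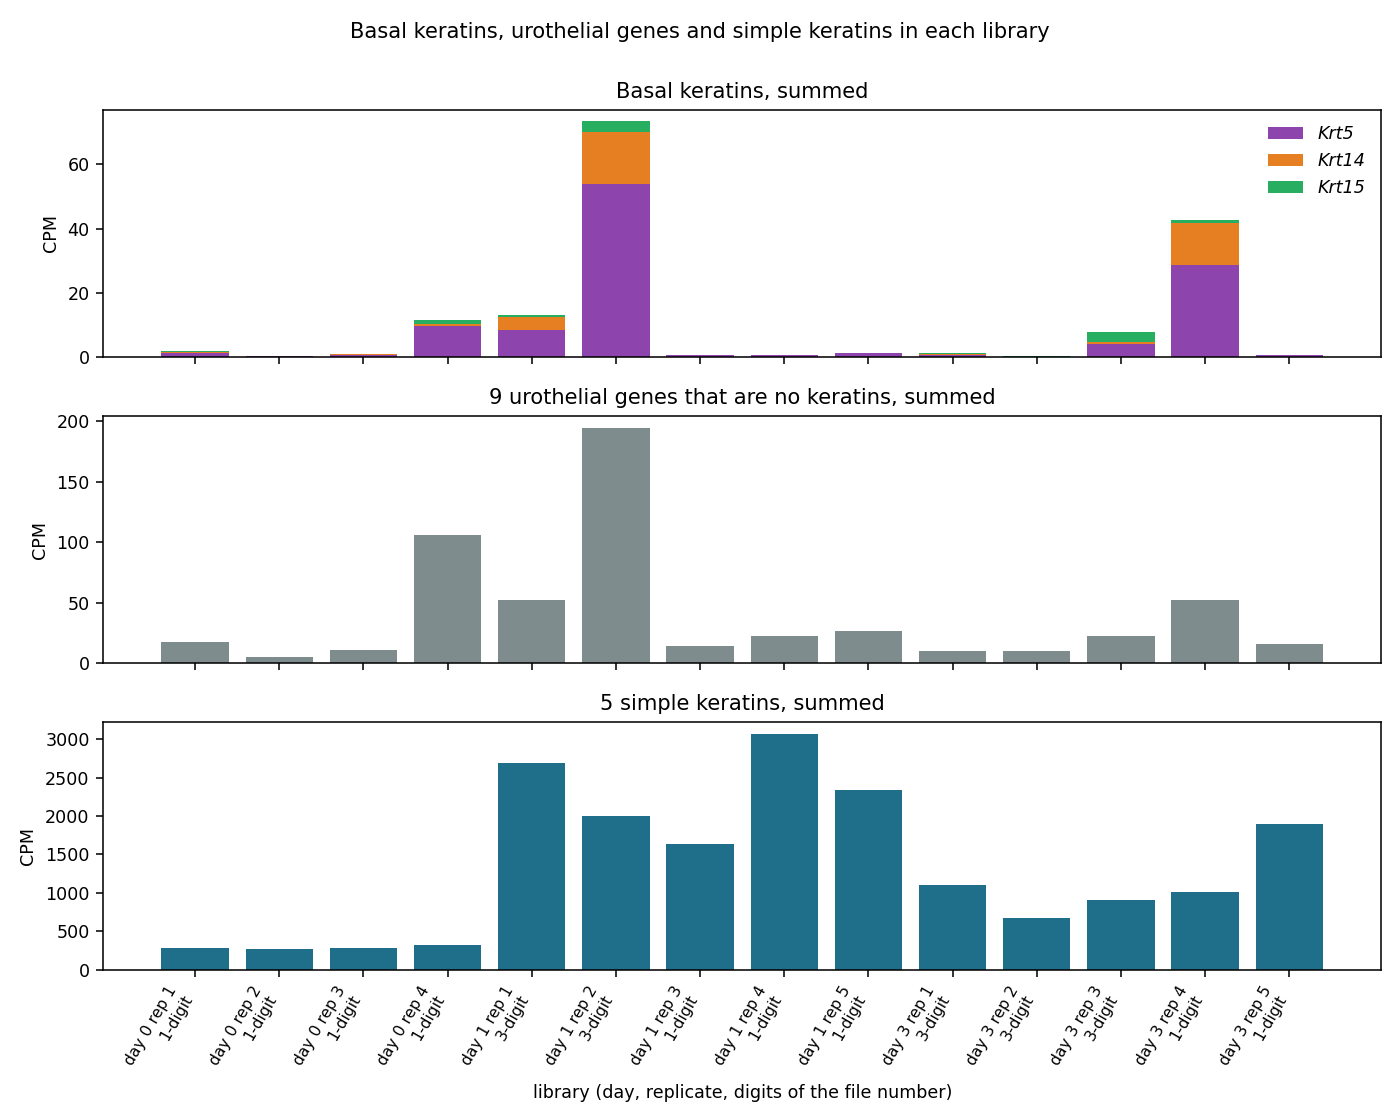
Summed CPM in each library of the basal keratins (top, stacked by gene), of 9 urothelial genes that are no keratins (middle) and of the 5 simple keratins (bottom), each panel with its own linear scale from 0. The basal keratins reach 73.3 CPM in replicate 2 of day 1 and 42.5 CPM in replicate 4 of day 3, whereas the simple keratins are at 266 to 322 CPM at day 0 and above 669 CPM in every injured kidney.

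Krt7, Krt18, Krt19 and Krt20 were also highest among day 0 kidneys in replicate 4, the one with 106 CPM of urothelial genes, and Krt8 was lowest there (118 CPM). Krt7 stood at 140 CPM in it, against 118 to 134 CPM in the other 3, and Krt19 was highest at day 1 in replicate 2 and at day 3 in replicate 4. The part of urothelium in these values was not tested. In replicates 3, 4 and 5 of day 1 the basal keratins summed to 0.545, 0.800 and 1.37 CPM, within the range of day 0 (0.353 to 11.6 CPM), and the simple keratins to 1635, 3072 and 2341 CPM. In the fit by day and format these 3 libraries against day 0 gave 5 of 8 keratins higher, all simple, beside 58.5% of all genes called and 28.9% called higher. The log2 fold changes were 0.91 for Krt7, 3.03 for Krt8, 3.43 for Krt18, 2.75 for Krt19 and 9.79 for Krt20. DESeq2 called 5 of 5 simple and 1 of 3 basal keratins here, beside 60% of all genes. These 3 libraries are among the 5 of day 1 and share the day 0 controls, and the difference from the fit over all 5 was not tested. Leaving out replicate 4 of day 0 as well, an alternative added after the data were seen, also gave 5 called at day 1, all higher, beside 58.7% of all genes called and 30.4% called higher. At day 3 it gave 6 of the 6 keratins tested, Krt5 included, beside 54.6% called and 29.7% called higher. Krt5 had 425 reads in replicate 4 of day 3 and 8 in replicate 5. Without replicate 4 of day 3 as well, also added after the data were seen, which leaves replicate 5 as the only day 3 library and takes its spread from the other groups, 4 of 6 were called, beside 53.1% of all genes, and Krt5 (log2 -0.45, adjusted p = 0.675) and Krt7 (adjusted p = 0.0787) did not pass.

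Between number formats within day 1, the 3 basal keratins were higher in the 2 libraries with 3-digit numbers and 0 of 5 simple keratins passed (0 at an unadjusted p under 0.05 with edgeR and 0 with DESeq2). Of all genes 35% were called in this comparison and 18.6% were called higher. DESeq2 called 2 of the 3 basal keratins, beside 38.3% of all genes. Krt5 had 1340 reads in the 3-digit libraries and 38 in the 1-digit libraries, a log2 difference of 5.16 ± 1.55 (adjusted p = 0.0208). Krt14 had 430 reads against 1, a ratio of 473 with a 95% exact interval of 84.4 to 18713 that covers counting error only (adjusted p = 0.00612). Krt15 had 87 reads against 0 and was at least 9.87-fold higher, against a floor of 3 reads per library (adjusted p = 0.0267). The groups did not overlap for these 3 genes, nor for Krt7, which did not pass (adjusted p = 0.592). The share of all genes without overlap was not counted. Without replicate 3, 4 or 5 of day 1, 1 of 8 keratins was called, beside 30.9%, 27.1% and 28.7% of all genes. Without replicate 2 the calls of the basal keratins did not hold. A pair of libraries with 1 left out is a group of 1, assumed to vary like the other groups, as replicate 1 is there without replicate 2. Over the alternatives that tested them all 3 fitted differences stayed positive, with adjusted p of up to 0.0519 for Krt14, 0.179 for Krt15 and 0.210 for Krt5 (18, 15 and 14 of 19 alternatives passed). Of the urothelial genes 2 of 8 tested were higher (median log2 difference 3.34), a share near that of all genes, and the other 6 did not pass. Smooth muscle genes were higher in 7 of 8 cases, Tagln (1.19 ± 0.27, adjusted p = 0.00557) and Acta2 (1.81 ± 0.32, adjusted p = 0.00130) among them, while Smtn did not pass (-0.51 ± 0.24, adjusted p = 0.109). Of the proximal tubule genes 7 of 12 were lower in the 3-digit libraries (median -1.52), beside 16.4% of all genes called lower, of the collecting duct genes 4 of 12 were higher, and of 4 cornified epithelial genes 2 were higher and 1 lower. Of 4 mesothelial genes 2 were higher, with Msln at 9.43 and 9.67 CPM in replicates 1 and 2 against at most 0.965 CPM in the other 3. The part of these lists in the keratin values was not tested.

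Within day 3, 2 of 8 keratins were lower in the 3-digit libraries, beside 18.5% of all genes called and 8.22% called lower. Krt14 had 17 reads in the 3 libraries with 3-digit numbers and 197 in the pair with 1-digit numbers, all 197 in replicate 4 (adjusted p = 0.0419). The groups overlapped. Without replicate 4 the 1-digit group is replicate 5 alone, with 0 reads of Krt14, and no difference was called (adjusted p = 0.344). Krt15 had 67 reads in the 3-digit and 10 in the 1-digit libraries and did not pass (log2 1.68, adjusted p = 0.454). Krt20 stood at 52.6 to 170 CPM in the 3-digit libraries and at 225 and 878 CPM in the 1-digit libraries, with no overlap and a log2 difference of -2.43 ± 0.76 (adjusted p = 0.0417). Its adjusted p ran from 0.0180 to 0.424 over the alternatives and the count of called keratins from 0 to 2 when single libraries were left out (0 without replicate 3 of day 0, replicate 5 of day 1 or replicates 2 or 3 of day 3). The fits with 0 called 13.6%, 16.2%, 8.26% and 8.06% of all genes. DESeq2 called 0 of the 8, beside 24.6% of all genes. Between these libraries 6 of 12 proximal tubule genes differed upwards in the 3-digit format (median log2 difference 1.16, beside 10.3% of all genes called higher) and of the smooth muscle genes 4 of 8 were lower (median -0.63), and their part in the Krt20 value was not tested. The format effect differed between day 1 and day 3 for Krt5 (log2 8.24 ± 2.09, adjusted p = 0.0171) and Krt14 (adjusted p = 0.00396), beside 17.6% of all genes called and 8.45% called higher. Fewer keratins were called without replicate 4 of day 3 or without replicate 2 of day 1, fits that leave 1 library in a group.

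Days were also compared within a format. The 1-digit libraries of day 3 against day 0 gave 5 keratins higher (Krt8, Krt14, Krt18, Krt19 and Krt20), beside 53.7% of all genes called and 28.6% called higher. Krt7 did not pass (adjusted p = 0.0879), and Krt14 had 197 reads in replicate 4 and 0 in replicate 5. Without replicate 4 the day 3 group is replicate 5 alone, where Krt14 turned lower and fewer keratins were called. Day 3 against day 1 gave Krt7 and Krt8 lower in both formats. In the 1-digit libraries Krt14 was higher as well, beside 32% of all genes called (16.5% higher and 15.5% lower). Without replicate 4 of day 0, 5 keratins were called, beside 30.5% of all genes. Without replicate 4 of day 3 the day 3 group is replicate 5 alone, and the calls did not hold. In the 3-digit libraries Krt14 and Krt20 were lower too (Krt20 fell by 2.61 ± 0.76 on the log2 scale, adjusted p = 0.0377), beside 13.9% called and 6.41% called lower, and the count of 4 went to 0 without replicate 1 of day 1, 1 without replicate 2 and 2 without replicate 5 of day 1 or replicate 2 of day 3. The share of all genes called in those fits was 1.64%, 5.24%, 12.1% and 11.4%.

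Genes of the structures that keratins belong to gave a mixed picture. Of 12 desmosome and plakin genes tested, which tie keratin filaments to the cell surface, 7 were higher and 3 lower at day 1, and 6 higher and 3 lower at day 3 (median log2 fold changes 0.73 and 0.74). Over the alternatives 3 to 8 were higher at day 1 and 5 to 8 at day 3, and 2 to 3 and 1 to 3 lower. Of all genes 23.3% were called higher and 18.7% lower at day 1, and 19.5% higher and 13.8% lower at day 3, the shares to set beside each list here. Among the 3 most abundant, the junction protein Jup (plakoglobin) rose (0.67 ± 0.16, adjusted p = 0.00509), while Dst (-1.01 ± 0.22, adjusted p = 0.00245) and Pkp4 (-0.84 ± 0.18, adjusted p = 0.00236) were lower at day 1. Of 6 other intermediate filament genes tested, 3 were higher at day 1 and 4 at day 3, with 0 lower. Vimentin (Vim), the filament protein of mesenchymal and dedifferentiated cells, rose by 1.73 ± 0.21 at day 1 (adjusted p = 5.61e-05) and 2.65 ± 0.22 at day 3 (adjusted p = 5.32e-06), and Lmna and Nes rose at both days.

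Tubular injury genes rose with the simple keratins, 9 of 10 at day 1 and 9 of 10 at day 3, with 0 lower. The most abundant were Spp1 (osteopontin, log2 4.01 ± 0.59 at day 1), Clu (clusterin, 3.28 ± 0.26) and Lcn2 (the injury marker NGAL, 9.55 ± 1.09), with adjusted p of 0.000222, 2.85e-06 and 3.58e-05. Havcr1, also on this list, stood at 89.8 to 119 CPM at day 0. At day 1 it stood at 1860 and 3014 CPM in the 3-digit and at 30.5, 151 and 45.8 CPM in the 1-digit libraries. The collecting duct expresses Krt7, Krt8, Krt18 and Krt19 in the healthy kidney. Of 12 of its other genes 0 were higher and 4 lower at day 1, where 18.7% of all genes were called lower and the called share of all genes was 42.1%. At day 3, 0 were higher and 6 lower, beside 13.8% of all genes lower. These counts ran from 0 to 7 lower (and up to 1 higher) at day 1 and from 4 to 10 lower at day 3 over the alternatives. Their sum was 1080 to 1340 CPM at day 0, 504 to 1004 CPM at day 1 and 341 to 916 CPM at day 3. Of the 3 with the highest mean over the 14 libraries, Hsd11b2 was lower at day 1 (-1.49 ± 0.40, adjusted p = 0.00939), and Aqp2 (-0.55 ± 0.43, adjusted p = 0.314) and Aqp3 (-0.35 ± 0.20, adjusted p = 0.162) did not pass. Of 12 proximal tubule genes 0 were higher and 4 lower at day 1, a count that ran from 2 to 10 lower over the alternatives. At day 3, 0 were higher and 6 lower (median log2 fold change -1.41), which ran from 4 to 11 lower. The most abundant were Acsm2 (-0.46 ± 0.39 at day 1, adjusted p = 0.346, and -1.73 ± 0.39 at day 3, adjusted p = 0.00480), Slc27a2 (-0.93 ± 0.29, adjusted p = 0.0185, and -1.21 ± 0.29, adjusted p = 0.00606) and the phosphate transporter Slc34a1 (-0.56 ± 0.80, adjusted p = 0.591, and -1.79 ± 0.81, adjusted p = 0.102).

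Markers of other epithelia were given by the same rule. Of the 8 mesothelial genes 4 were tested, with 1 lower (Gpm6a, -1.89 ± 0.26, adjusted p = 0.000116) and 0 higher at day 1, and Msln and Wt1 did not pass at day 1 (adjusted p = 0.0952 and 0.940). Gpm6a stood at 168 to 238 CPM at day 0, where Msln had at most 2.00 CPM. Whether these genes mark mesothelium in this tissue was not tested. At day 3 Msln was higher (3.76 ± 1.18, adjusted p = 0.0252) and Gpm6a lower (-1.87 ± 0.26, adjusted p = 0.000190), with 1 of 4 called in each direction. Of the 12 genes of cornified squamous epithelium 4 passed the filter, with 1 higher (Sbsn, 3.92 ± 0.50, adjusted p = 8.24e-05) and 0 lower at day 1, and Krt10 did not pass (adjusted p = 0.915). Krt4, with a mean of 1.42 CPM, did not pass the filter on low counts. At day 3, 1 was higher (Sbsn, 3.81 ± 0.50, adjusted p = 0.000152) and 0 lower.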

How the data were processed

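Total RNA from whole kidney was sequenced with an Illumina TruSeq kit. Per the sample records and their processing notes, the authors named Trimmomatic, STAR and the build mm10. Versions, the annotation and the alignment settings are not given in the sources used here. Each deposited file lists, gene by gene, the raw count of reads that map to 1 place, once without regard to strand and once per strand. The column of the strand that held 98.5% to 98.7% of the stranded reads was used, and entries that name no gene (29.0% to 38.3% of reads) were left out.

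The tests ran in edgeR 4.0.16 and limma 3.58.1 under R 4.3.3, with DESeq2 1.42.0 as an alternative. Genes were kept by filterByExpr with day as the group (14300 of 24411) and scaled by TMM. The quasi-likelihood test used 1 term per day, or 1 per day and number format, over 14 libraries, with Benjamini-Hochberg adjustment over all genes tested. The F statistic gave the standard errors. The fit was tested on simulated data. Log2 CPM used a prior count of 2, and the fits used edgeR's default. CPM per kb used the longest coding transcript in GENCODE M21. Day 0 holds 1-digit libraries only, so the format could be separated from the day only between days 1 and 3.

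All 8 members are given in full. Of each list the 3 genes of highest mean CPM are named (the same holds for other keratins), and for 4 members the 3 genes with the highest Pearson correlation of log2 CPM. Members and lists were chosen with earlier results of these data known. Alternatives were the unstranded column, other scalings and filters, DESeq2, a replicate block, subsets by format and leaving out each library.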

Additional observations from a re-analysis of the deposited data

Results flagged for a closer look

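Single libraries stood apart from their group in 2 of 24 groups of values, where chance gives about 1.2. Krt18 in replicate 4 of day 0 had a log2 CPM of 5.50, while the other day 0 libraries ran from 3.94 to 4.19. This library also held 106 CPM of urothelial genes, and their part was not tested. Krt7 in replicate 3 of day 1 had a log2 CPM of 7.74, while the other 4 lay between 8.01 and 8.04.

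The difference between libraries with 3-digit and 1-digit numbers was not the same at day 1 and day 3 for Krt5 (log2 8.24 higher at day 1, adjusted p = 0.0171 in edgeR's interaction test) and for Krt14 (log2 12.88, adjusted p = 0.00396). The value of Krt14 depends on the default prior count of edgeR's fit, since 1 read was found in the 1-digit libraries of day 1.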

How the results depend on the processing

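The calls of Krt8, Krt18, Krt19 and Krt20 against day 0 held under every alternative that tested them, with log2 fold changes at day 1 from 3.01 to 3.38, 2.78 to 3.97, 2.65 to 4.37 and 8.69 to 11.31. Requiring at least 10 counts in every library removed Krt20 and the basal keratins. It left 3 calls at day 3 against day 0, where Krt7 also lost its call (adjusted p = 0.0523), beside 32.2% of all genes. It left 3 for the 1-digit libraries of day 3 against day 0, 2 for day 3 against day 1 in the 3-digit libraries and 0 between formats at day 1, at day 3 and for the difference between them, beside 54.5%, 15.1%, 37.7%, 19.6% and 19.8% of all genes. DESeq2 gave 0 calls between formats at day 3, 1 for the difference between the days and 2 for day 3 against day 1 in the 3-digit libraries, beside 24.6%, 22.5% and 19.1% of all genes, more than edgeR in each. Using only the 3-digit libraries of days 1 and 3 gave 4 calls between these days, beside 16% of all genes. Krt5 then turned lower at day 3 than at day 0 (-0.81) but did not pass (adjusted p = 0.635). Using only the 1-digit libraries turned the basal keratins at day 1 against day 0 (Krt5 -1.77, Krt14 -3.23, Krt15 -5.72), Krt15 at day 3 against day 0 (-0.26; Krt5 -0.45 when replicates 4 of days 0 and 3 were also left out) and all 3 at day 3 against day 1 (4.06, 7.76 and 5.46). At day 1 these libraries held 1 read of Krt14 and 0 of Krt15, so their values depend on the prior count of the fit. Of these turned values only that of Krt14 between days 1 and 3 passed (adjusted p = 0.0123). With number format as a term Krt15 turned at day 1 (-1.68) and day 3 (-1.49) against day 0 and between these days (0.19), as it did between days 1 and 3 with total counts (0.031). The cause was not tested.

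With single libraries left out, counts of called keratins ran from 0 to 3 between formats at day 1, 0 to 2 at day 3 and 0 to 2 for the difference, from 3 to 6 for the 1-digit libraries of day 3 against day 0, and from 0 to 5 for day 3 against day 1 in either format. Over the same fits the share of all genes called ran from 14% to 39.4% between formats at day 1, 0.638% to 33.5% at day 3 and 8.85% to 22.1% for the difference. It ran from 36.5% to 56.4% for the 1-digit libraries of day 3 against day 0. Between the injured days it ran from 19.6% to 36% in the 1-digit and 1.64% to 17.4% in the 3-digit libraries. Basal log2 fold changes at day 1 against day 0 ran from -0.11 to 3.99 (Krt5) and -1.09 to 2.21 (Krt15), and at day 3 against day 0 from -1.06 to 3.06 (Krt5), -0.33 to 4.25 (Krt14) and -0.64 to 2.16 (Krt15). At day 3 against day 1 they ran from -3.17 to 1.28 (Krt5), -4.14 to 1.38 (Krt14) and -1.62 to 2.05 (Krt15). Krt14 ran from -6.26 to 5.35 between formats at day 3, from -5.33 to 5.53 for the 1-digit libraries of day 3 against day 0 and from -2.04 to 9.85 for day 3 against day 1 in the 1-digit libraries. Without replicate 4 of day 3 these fits rest on 1 library with 0 reads, so the values depend on the prior count of the fit.

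Whether replicate numbers pair the libraries is not stated. Of 13 same-number pairs 4 had a correlation of deviations over 0.1 (from -0.17 to 0.26), and 4 of 14 libraries were closest to one of their own number. These values cannot settle it. With a replicate block the calls were 5, 4 and 3 in the comparisons of days, beside 36.1%, 28.7% and 14.3% of all genes, and Krt15 at day 3 against day 1 stood at 0.013. Depth limits the basal keratins, where counts under 20 reads were common, and Krt20 at day 0.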

Other observations

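Of 44 other keratin symbols 18 had no read in any library and 4 passed the filter. The most abundant were Krt80, Krt10 and Krt12, with mean levels of 9.31, 7.49 and 6.24 CPM over 14 libraries. Krt80 (log2 fold change 0.04 ± 0.26, adjusted p = 0.924) and Krt10 (-0.04 ± 0.25, adjusted p = 0.915) did not pass at day 1 against day 0. Krt12, the type I keratin of corneal epithelium, had at most 0.06 CPM at day 0. At day 1 it stood at 14.2, 40.4 and 22.0 CPM in the 1-digit libraries and at 0.54 and 0.32 CPM in the 3-digit libraries, with no overlap (adjusted p = 0.00123 between formats in edgeR's test, adjusted p = 0.00340 for day 1 against day 0). At day 3 it had 7.57 CPM in replicate 5 and at most 1.12 CPM elsewhere. Its format difference at day 1 runs opposite to that of the basal keratins.

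Over the 14 libraries, which fall into 3 days, the genes most like each of 4 members among 13319 compared were found by Pearson's r of log2 CPM, as a description. For Krt20 they were Mthfd1l (0.985), Pdlim7 (0.984) and Sprr2g (0.983), and for Krt18 Sprr2g (0.984), Lypd3 (0.979) and Dusp10 (0.979). For Krt19 they were Egr2 (0.954), S100a14 (0.952) and Akr1b8 (0.940). For Krt5 they were Upk1b (0.912), Sprr2a3 (0.898) and Psca (0.875), of which Upk1b and Psca are on the urothelial list. Sprr2g, a small proline-rich protein, had mean levels of 0.122 CPM at day 0, 19.2 CPM at day 1 and 10.3 CPM at day 3.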
